A study of Mus musculus with 73 samples.

Results

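The *Ap1m1* library is a pool of barcoded reporter plasmids in which a pair of DNA fragments was placed with the promoter of the housekeeping gene *Ap1m1*. Its members are all combinations of the normalized data whose library is *Ap1m1*, 15868 of the 110180 combinations of the whole series. Each combination consists of fragments in position 1 and position 2, each in plus or minus orientation, and a fragment is either an enhancer or a control without known regulatory function. Of the combinations, 424 were control-control (CC), 5780 enhancer-control (EC) and 9664 enhancer-enhancer (EE).

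All libraries were transfected into E14TG2a cells, a line of mouse embryonic stem cells (mESCs) kept undifferentiated in medium with LIF and kinase inhibitors. The *Ap1m1* library was nucleofected into 3 biological replicates, each sequenced in 2 runs, and RNA was collected after 24 hours. All replicates carried the same plasmids, and the other 7 libraries differed in their promoter, which came from the developmental genes *Sox2*, *Klf2*, *Otx2*, *Fgf5*, *Lefty1*, *Nanog* and *Tbx3*. Because each promoter was present as 1 plasmid pool on transient plasmids, properties of a promoter and of its pool cannot be told apart, and the spread between replicates is that of repeated transfections of the same plasmids.

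*Ap1m1* encodes the medium subunit of the clathrin adaptor complex AP-1, which sorts cargo between the trans-Golgi network and endosomes in almost every cell. Promoters of such housekeeping genes are active in most tissues, whereas promoters of developmental genes depend strongly on distal enhancers, which are DNA elements bound by transcription factors that raise transcription from a distance. In mESCs, factors such as Oct4 (encoded by *Pou5f1*), Sox2 and Nanog occupy many of these enhancers and keep the cells pluripotent. *Klf2*, a neighbour of *Ap1m1* on chromosome 8, encodes a zinc finger factor of this network.

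The *Ap1m1* promoter fragment lies at chr8:72239767-72240216 in mm10 and overlaps the *Ap1m1* gene. The ends of this fragment and of the enhancers with the highest tested and the lowest activity are shown to identify the tested DNA, as given by the genomic parts of the amplification primers, with the last bases turned to the same strand as the first. Which genome strand these are on was not read here. Lefty1_E094 lies at chr1:180933655-180934104 and Pou5f1_E084 at chr17:35509279-35509728, where the annotation has *Pou5f1*.
*Ap1m1* promoter, first bases: aaaggctcaactccaaatcggttc
*Ap1m1* promoter, last bases: ctactgccgagaccttccaaag
Lefty1_E094, first bases: tttcttacttagccctcatttccctcg
Lefty1_E094, last bases: gtgtaaccaagtcccagattcagtacg
Pou5f1_E084, first bases: gattagacgcttgtagcttgaactgtc
Pou5f1_E084, last bases: catttgctaatcaatcaggctctctcc

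The activity of a combination is the ratio of its barcodes in cDNA to those in plasmid DNA, and the boost index is the log2 of this activity over the median activity of the CC combinations of the same library and replicate. The baseline of *Ap1m1*, that median itself, was 0.63, 0.535 and 0.597 in replicates 1 to 3. It was above the baselines of all developmental promoters, whose means over replicates ranged from 0.0891 for *Lefty1* to 0.423 for *Otx2*. Counts were scaled to the total of each library, and each library was transfected separately. Baselines of different libraries are thus not on a common scale of promoter strength. The number of barcodes and reads behind an activity is unknown, so that no counting error is given here.

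Combinations with enhancers were on the whole higher than the controls, and the ranges of the 3 types overlapped. The median boost index of the EC combinations was 0.43, 0.50 and 0.44 in replicates 1 to 3, or 0.46 ± 0.04 (SD, n = 3). That of the EE combinations was 0.71, 0.85 and 0.74, or 0.76 ± 0.08 (SD, n = 3). The EE value was above the EC value in each replicate, by 0.31 ± 0.04 (SD, n = 3). Between the 5th and 95th percentiles, CC combinations spanned 1.73 log2 units, the EC combinations 1.70 and the EE combinations 1.55. The 3 types thus differed more in their centre than in their width. With the *Lefty1* promoter the same spans were 2.84, 5.06 and 4.18, wider with enhancers than without. The contrast was smaller with *Klf2*, *Nanog* and *Otx2*. There the EE spans of 2.00, 2.19 and 2.04 were closer to the CC spans of 1.77, 2.14 and 1.91, with EC spans of 2.39 to 2.70. An exact sign-flip test over 3 replicates cannot go below p = 0.25 and was not used for these medians.

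Single combinations were tested against the CC median with limma over the 3 replicates, at a 5% FDR over all combinations of all libraries. Of the *Ap1m1* CC combinations, 17.2% were called higher and 20% lower than their own median, which is the background of such calls. Of the EC combinations, 54.8% were higher and 6.31% lower, and of the EE combinations 77.9% and 1.97%. Shares of higher calls were thus larger, and of lower calls smaller, than among the controls. The *Klf2* library, whose baseline is among the nearest in value though not on a common scale, had 93.6% of its EE combinations called higher and 0.201% lower.

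Of the 58 enhancers in the *Ap1m1* library, 57 were measured with a control, in 4 to 160 EC combinations each (median 98). The single-enhancer boost is the median over these combinations, calculated in each replicate. Of the 56 enhancers with at least 5 EC combinations, 42 were higher than the controls, 1 was lower and 13 were not called (limma, 1% FDR over all enhancer-promoter pairs). Over all pairs of the 8 libraries, 83.4% were called higher and 2.04% lower. The test takes in the spread between transfections and not that between controls. Medians of CC combinations grouped by the control they hold ranged from -0.32 for E6-shuffled1 to 0.34 for RandomE5. Some called enhancers, such as Sox2_E181 with 0.25, lay within this range. Without replicate 2, 22 enhancers were called higher, all among the 42. The median SD over replicates was 0.056, and the widest was that of Sox2_E180, 0.27.

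**Figure D1:**
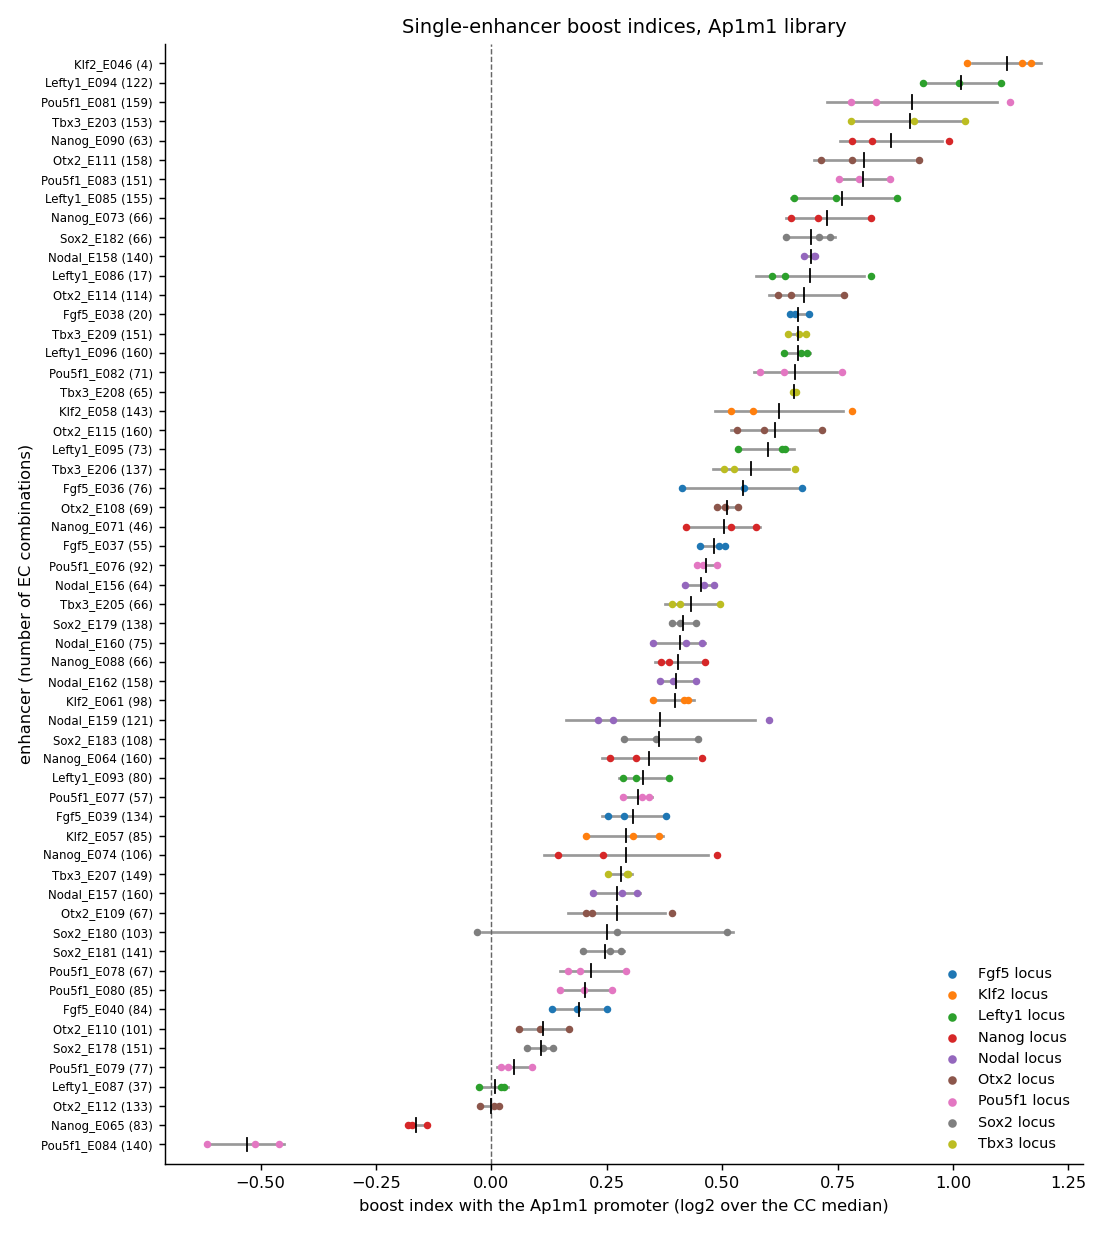
Single-enhancer boost indices with the *Ap1m1* promoter (x axis, log2 over the CC median) for 57 enhancers (y axis, with the number of EC combinations), where points are the 3 replicates, black ticks their mean, grey bars 1 SD and colours the locus of origin. Values range from -0.53 for Pou5f1_E084 to 1.12 for Klf2_E046, which rests on 4 combinations, and no locus stands apart as a whole.

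Lefty1_E094, which overlaps the predicted gene *Gm39715* near *Lefty1*, was the highest tested enhancer. Its boost was 1.01, 1.103 and 0.93 in replicates 1 to 3, a 2.02-fold activation (limma, FDR 0.00017). Next were Pou5f1_E081 with 0.83, 1.12 and 0.78 (FDR 0.000647), Tbx3_E203 with 0.78, 1.03 and 0.92 (FDR 0.000322) and Nanog_E090 with 0.83, 0.99 and 0.78 (FDR 0.000318). These 4 overlapped one another in their replicates, and replicate 2 was the highest in each of them. Otx2_E111 (mean 0.81), Pou5f1_E083 (0.81), Lefty1_E085 (0.76), Nanog_E073 (0.73) and Sox2_E182 (0.69) completed the 10 highest together with Klf2_E046, and all of those with a test were called. Of 56 neighbouring pairs in the ranking, 6 differed by more than the larger of their SDs, so that the order of close neighbours is mostly within the replicate spread. The wider order was shared by the replicates, with a Spearman's rho of 0.835 to 0.944 between them over 45 enhancers.

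Pou5f1_E084 was the only enhancer called lower than the controls. Its boost was -0.62, -0.51 and -0.46 in replicates 1 to 3 (mean -0.53, a ratio of 0.693 to the controls, FDR 0.00101), and no replicate reached any other enhancer's value. Of its 140 EC combinations, 12.1% had a mean boost above 0. Without replicate 2 its mean was -0.54 and its FDR 0.0123, past the 1% limit. The next lowest, Nanog_E065, had -0.14, -0.18 and -0.17 (FDR 0.0308) and was not called. Lefty1_E087, Pou5f1_E079 and Sox2_E178 had means of 0.01, 0.05 and 0.11, Otx2_E112 had -0.03, 0.01 and 0.02 in replicates 1 to 3, and none of these was called.

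All 4 *Klf2* enhancers come from the chromosome that carries *Ap1m1*, at higher coordinates than its promoter fragment. Klf2_E046, at chr8:72271222-72271671 and the nearest to *Ap1m1*, had 1.17, 1.15 and 1.03 in replicates 1 to 3, the highest mean of the library, but from 4 EC combinations, all in position 2, and was therefore not tested. In its 231 EE combinations it raised the activity of the partner by 0.34, 0.58 and 0.51 in replicates 1 to 3, below its boost with controls in each. Over all enhancers of the library, the median effect on a partner (0.31) was likewise below the median boost (0.45). Klf2_E058 had a boost of 0.62 (FDR 0.00131), Klf2_E061 of 0.40 (FDR 0.00179) and Klf2_E057 of 0.29 (FDR 0.008). Klf2_E057 was no longer called without any 1 of the replicates, with FDRs of 0.0429, 0.0218 and 0.0265, and Klf2_E061 not without replicate 1 or 2. The locus median of 0.51, which counts the untested Klf2_E046, lay within the range of the 9 loci, from 0.31 for *Sox2* to 0.66 for *Lefty1*. The middle of the 3 tested values, 0.40 for Klf2_E061, lay within it as well.

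By locus, all 6 *Tbx3* enhancers were called higher, as were 6 of 7 *Lefty1*, 5 of 6 *Nodal*, 4 of 5 *Fgf5*, 5 of 7 *Nanog*, 4 of 6 *Sox2*, 4 of 7 *Otx2* and 5 of 9 *Pou5f1* enhancers. All 3 tested *Klf2* enhancers were called. The ranges of the loci overlapped, and the enhancers of *Pou5f1*, which encodes the pluripotency factor Oct4, spanned from the lowest enhancer of the library to 0.91 for Pou5f1_E081.

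The boost of EC combinations differed with which control accompanied the enhancer. Over the 20 controls, the median boost of all EC combinations that hold the control ranged from 0.21 to 0.83, a span of 0.62 log2 units. The 4 highest were RandomE5 with 0.80, 0.90 and 0.78 in replicates 1 to 3, E30-shuffled3 with 0.81, 0.85 and 0.81, E46-shuffled2 with 0.78, 0.83 and 0.75, and E46-shuffled3 with 0.65, 0.76 and 0.64. The lowest was E95-shuffled1 with 0.21, 0.21 and 0.20, and the replicates of the highest and lowest controls did not overlap. In CC combinations the same 4 controls had the highest medians, from 0.27 for E46-shuffled3 to 0.34 for RandomE5, while that of E95-shuffled1 was -0.20. Over the 20 controls, Pearson's r between the EC and CC medians was 0.925, a description of controls that share the library and its baseline.

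**Figure D2:**
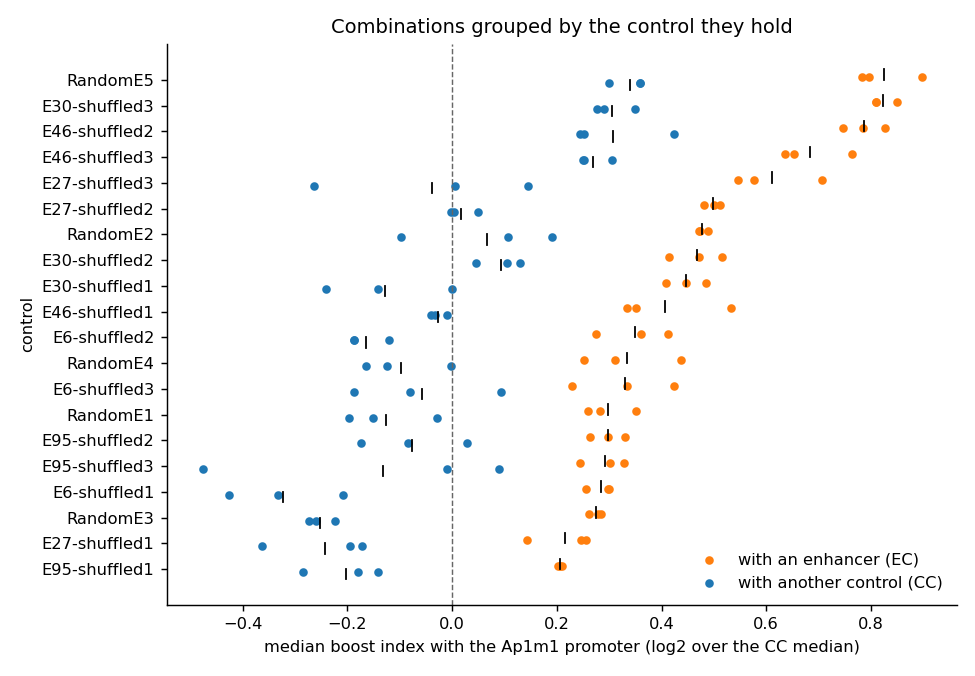
Median boost index with the *Ap1m1* promoter (x axis, log2 over the CC median) of combinations grouped by the control they hold (y axis), with an enhancer (EC, orange) or with another control (CC, blue), where points are the 3 replicates and black ticks their mean. The EC medians run from 0.21 for E95-shuffled1 to 0.83 for RandomE5, and the 4 controls at the top have the highest CC medians as well.

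Most controls were shuffled versions of an enhancer in 3 different orders, which keep its bases and change their sequence. The 3 versions of E30 have the same GC content, 46.2%, and EC medians of 0.82 for E30-shuffled3, 0.47 for E30-shuffled2 and 0.45 for E30-shuffled1. The 3 versions of E46 (55.3% GC) had 0.79, 0.68 and 0.41, and those of E27 (51.6% GC) 0.61, 0.50 and 0.22. For these 3 sources the highest and lowest versions differed by more than their SDs over replicates, which were at most 0.11. The versions of the other sources lay closer together, with 0.35, 0.33 and 0.28 for E6, within the SD of its highest and middle versions, and 0.30, 0.29 and 0.21 for E95. Stretches of 120 bases are shown from the highest and lowest controls and from versions of E30 that differ. That of E30-shuffled3 (bases 341 to 460) is centred on its CGGAAG match and that of E30-shuffled1 covers the same bases. The stretch of E95-shuffled1, the lowest control, holds both of its CGGAAG matches (bases 332 to 451), and that of RandomE5, which has none anywhere, follows the common adapter (bases 23 to 142). Capitals mark matches to a short list of motif cores, here CGGAAG, the core of ETS family sites, its reverse complement CTTCCG, and CCAAT.
E30-shuffled3: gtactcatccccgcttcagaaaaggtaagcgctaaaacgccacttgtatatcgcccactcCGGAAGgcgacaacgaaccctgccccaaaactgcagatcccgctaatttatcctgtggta
E30-shuffled1: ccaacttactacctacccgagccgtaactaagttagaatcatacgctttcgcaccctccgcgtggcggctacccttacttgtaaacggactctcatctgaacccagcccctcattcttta
RandomE5: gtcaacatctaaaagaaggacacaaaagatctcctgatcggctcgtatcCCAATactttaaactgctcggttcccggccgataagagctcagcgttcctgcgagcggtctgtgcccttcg
E95-shuffled1: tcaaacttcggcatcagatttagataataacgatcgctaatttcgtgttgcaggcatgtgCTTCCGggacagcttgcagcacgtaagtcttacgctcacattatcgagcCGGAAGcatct

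CGGAAG occurs in 7 of the 20 controls (35%), whose EC medians ranged from 0.21 to 0.82 with a median of 0.50. The 13 controls without it ranged from 0.22 to 0.83 with a median of 0.33, so that both groups covered the same range. CCAAT occurs in 10 controls (50%), with medians of 0.34 with and 0.46 without it, and GGGCGG, the GC box bound by Sp1, in 2 (10%). GC content, from 43.8% to 57.3%, had a Pearson's r of 0.223 with the EC median. These matches are a description of 20 sequences and were not tested.

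The share of the control in the variation was larger with *Ap1m1* than with any other promoter. A description by fragment identity, orientation and position accounted for 48.1% of the variance of the mean boost of EC combinations through the enhancer and for 35% through the control, or 80.6% together. In the *Klf2*, *Nanog* and *Otx2* libraries the enhancer accounted for 70.3% to 74.7% and the control for 16.8% to 17.8%. In the *Sox2*, *Lefty1*, *Tbx3* and *Fgf5* libraries, the control accounted for at most 7.45%. In absolute terms, the span between controls was 0.65 to 0.79 log2 units with *Otx2*, *Nanog*, *Klf2* and *Fgf5* and 1.07 to 1.25 with *Tbx3*, *Sox2* and *Lefty1*. RandomE5 was also the highest control with 5 of the 7 developmental promoters.

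EC combinations were more active with the enhancer in position 2 than in position 1. The control then takes the other position, so that its own position is part of this difference. Numbers of combinations in positions 1 and 2 were also unequal for some enhancers, such as 43 and 79 for Lefty1_E094. The median over 54 enhancers of position 1 minus position 2 was -0.20, -0.16 and -0.16 in replicates 1 to 3, or -0.17 ± 0.02 (SD, n = 3), and 44 of the 54 enhancers had the higher mean in position 2. At a 5% FDR, 24 enhancers were lower and 4 higher in position 1 (limma), against 21.5% lower and 25.2% higher over all enhancer-promoter pairs. Without replicate 1, 8 enhancers were lower and 2 higher. With the developmental promoters the same median ranged from -0.03 for *Klf2* to 0.15 for *Sox2*, and the next most negative library, *Klf2*, had 17 enhancers called lower and 10 called higher in position 1. This difference between promoters was not tested.

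Pou5f1_E081 had the largest position difference. Its boost was 0.48, 0.85 and 0.51 in position 1 and 1.05, 1.27 and 1.00 in position 2 (difference -0.50, FDR 0.00556). For Tbx3_E203 the boost was 0.62, 0.79 and 0.65 against 1.02, 1.28 and 1.11 (difference -0.45, FDR 0.00556). The replicates of both positions did not overlap in either. Pou5f1_E083, Nodal_E158 and Lefty1_E085 differed by -0.43, -0.42 and -0.37 (FDR 0.00556 to 0.00709). Pou5f1_E084 went the other way, with -0.36, -0.34 and -0.18 in position 1 and -0.71, -0.61 and -0.73 in position 2 (difference 0.39, FDR 0.0143). Its distance from the controls was thus larger in position 2, and without replicate 1 its FDR was 0.067. The other 3 enhancers called higher in position 1 were Nodal_E156, Otx2_E112 and Pou5f1_E079, with differences of 0.33, 0.27 and 0.23.

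In the EE combinations, the fragment in position 2 with its orientation accounted for 57.4% of the variance of the mean boost and that in position 1 for 22.8%. In the *Klf2*, *Nanog* and *Otx2* libraries, position 2 accounted for 45.5% to 48.8% and position 1 for 31.1% to 35.7%. In the *Sox2*, *Lefty1*, *Tbx3* and *Fgf5* libraries, position 1 accounted for 42.6% to 47.3% and position 2 for 35.8% to 41.8%.

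**Figure D3:**
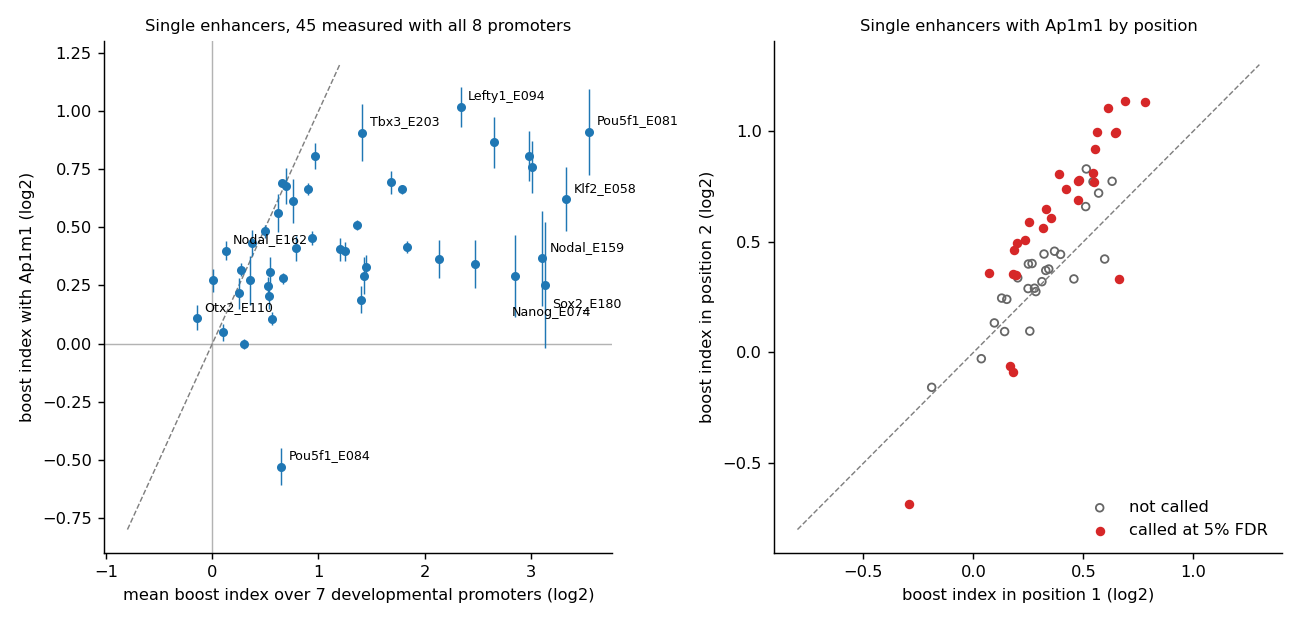
Left, single-enhancer boost with *Ap1m1* (y axis, log2, mean and SD of 3 replicates) against the mean boost over 7 developmental promoters (x axis, log2) for 45 enhancers, with the line of equal values dashed. Right, boost with *Ap1m1* in position 2 (y axis, log2) against position 1 (x axis, log2), where red marks enhancers called at a 5% FDR and the dashed line equal values, and 44 of 54 enhancers lie above it.

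Orientation changed the activity of single enhancers in either direction. Of 56 enhancers, 19 were higher in plus and 15 higher in minus orientation (limma, 5% FDR), against 27.2% and 24.1% over all pairs. The median absolute difference was 0.20 log2 units, within the range of 0.17 to 0.28 with the developmental promoters. Leaving out 1 replicate reduced these counts to 8 to 16 and 8 to 14. Otx2_E112, which was not called against the controls, differed most. It had 0.12, 0.29 and 0.20 in plus orientation and -0.50, -0.50 and -0.46 in minus orientation (FDR 0.00323), so that its replicates lay above the controls in the former and below them in the latter. Fgf5_E037 was higher in plus orientation (0.69, 0.68 and 0.64 against 0.19, 0.21 and 0.07, FDR 0.00363), and so was Sox2_E180 (difference 0.46, FDR 0.00364). Fgf5_E036, Sox2_E181 and Nodal_E156 were higher in minus orientation, by 0.52, 0.49 and 0.48 (FDR 0.00475, 0.00363 and 0.00365).  CC combinations occurred only in the same orientation of both controls, with medians of 0.08 ± 0.04 over 225 combinations in plus and -0.10 ± 0.02 over 199 in minus orientation (SD, n = 3).

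Some enhancers with high boosts at the developmental promoters, such as Sox2_E180 and Nodal_E159, had low boosts with *Ap1m1*, and others, such as Pou5f1_E081, were among the highest with both. For the 45 enhancers measured with all 8 promoters, the boost with *Ap1m1* was lower than the mean over the 7 developmental promoters for 31 enhancers (68.9% of those tested) and higher for 2 (4.44%), at a 5% FDR (limma). The spread in this test is that between transfections of 1 plasmid pool per promoter. Since the median boost was smaller with *Ap1m1*, the comparison was repeated relative to the median enhancer of each library. Then 20 enhancers (44.4%) were lower and 19 (42.2%) higher with *Ap1m1*. These calls make up the whole set of enhancers compared, so that there is no further background to read them against. Subtracting the median left the spread over tested enhancers unequal, with an SD of 0.29 for *Ap1m1* and 0.54 to 1.56 for the developmental promoters. Relative calls in both directions therefore include this difference in spread.

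Sox2_E180 differed most. Its boost with *Ap1m1* was -0.03, 0.51 and 0.27 in replicates 1 to 3, which placed it 0.16 below the median enhancer, and its mean with the developmental promoters was 3.14, which placed it 2.18 above it (relative difference -2.34, FDR 5.56e-13). Nodal_E159, with 0.23, 0.60 and 0.26 against a mean of 3.11, followed (relative difference -2.20, FDR 2.72e-13). Klf2_E058 was 2.17 and Nanog_E074 2.02 lower in relative terms. Pou5f1_E081 and Lefty1_E085, among the 10 highest with *Ap1m1*, were also lower in relative terms, by 2.09 and 1.70. At the other end stood Nodal_E162, with 0.40 with *Ap1m1* and 0.13 with the developmental promoters (relative difference 0.82, FDR 9.64e-09), and Nodal_E157, with 0.27 and 0.00 (0.81, FDR 1.09e-08). These were also the 2 enhancers called higher with *Ap1m1* in absolute terms, which rested on the *Fgf5* library, with a baseline from 23 CC combinations and boosts of -0.83 for Nodal_E162 and -1.06 for Nodal_E157. Without *Fgf5* the developmental means were 0.29 and 0.18, and neither was called (FDR 0.0924 and 0.287), while both relative differences were still called (0.79 and 0.76). Otx2_E110, Tbx3_E205, Pou5f1_E077 and Nodal_E158 had relative differences of 0.80, 0.60, 0.60 and 0.58. The *Klf2*, *Otx2* and *Nanog* promoters had the baselines nearest in value, which is no match of promoter strength. Against these promoters alone, 12 enhancers were lower and 10 higher in relative terms, and Tbx3_E205 was not among them (FDR 0.0711). After each library was also divided by its SD over enhancers, Otx2_E110 was not called (FDR 0.194).

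Across the 45 enhancers, Pearson's r between the boosts with *Ap1m1* and with another promoter ranged from 0.338 for *Fgf5* to 0.650 for *Otx2* (Spearman's rho 0.375 to 0.665). Among the developmental promoters it ranged from 0.887 to 0.997. The points are enhancers that share their controls and replicates within a library, and these values are a description without a test. Over EE combinations present in both libraries, r between *Ap1m1* and a developmental promoter ranged from 0.185 to 0.603.

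Replicate 2 of *Ap1m1* stood apart for enhancers with high boosts at developmental promoters. Of the 8 enhancers with the highest mean over the developmental promoters, all had their highest *Ap1m1* boost in replicate 2, by 0.18 to 0.39 above the mean of the other replicates. Over the 45 enhancers, the deviation of replicate 2 had a Pearson's r of 0.729 with that mean, and the deviations of replicates 1 and 3 had -0.514 and -0.509. Each deviation is from the mean of the other replicates, so that the deviations of an enhancer cancel out. The r values are therefore not separate observations. The deviations of replicate 2 in the other libraries also correlated with those of *Ap1m1* replicate 2, from 0.212 for *Sox2* to 0.791 for *Nanog*. The part of these deviations in the boosts of the enhancers was not tested.

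Pou5f1_E084 was called below the controls with *Ap1m1* and with none of the other promoters. Its boost was -0.02 ± 0.12 with *Klf2*, -0.07 ± 0.29 with *Otx2* and 0.06 ± 0.12 with *Nanog* (SD, n = 3), none of which was called. With *Fgf5* it was 0.60 ± 0.39 (FDR 0.0216), not called at 1% either. With *Tbx3* it was 1.11 ± 0.08, with *Lefty1* 1.19 ± 0.24 and with *Sox2* 1.68 ± 0.32, all called higher (FDR 0.000127 to 0.000502). Relative to the median enhancer, its boost with *Ap1m1* was 0.63 lower than with the developmental promoters (FDR 4.96e-06), but this was not called against *Klf2*, *Otx2* and *Nanog* alone (difference -0.19, FDR 0.132).

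Most enhancers raised the activity of their partner with *Ap1m1*. The effect on the partner was calculated as the median, over EE combinations with any other enhancer, of log2 activity minus the partner's single-enhancer activity in its position. Of 58 enhancers, 45 were called as raising it and 2 as lowering it (limma, 5% FDR), against 91.8% and 1.73% over all enhancer-promoter pairs. Pearson's r between the single-enhancer boost and the effect on the partner was 0.904 over 57 enhancers, as a description.

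Lefty1_E094 and Tbx3_E203 added most to their partners. Lefty1_E094 added 0.84, 0.87 and 0.78 in replicates 1 to 3 over 374 combinations (FDR 0.000108), and Tbx3_E203 added 0.74, 0.91 and 0.78 over 419 (FDR 0.000206). Their replicates overlapped, and all lay above those of Otx2_E114 (mean 0.66), Pou5f1_E083 (0.65) and Otx2_E115 (0.60). Pou5f1_E084 lowered its partners by 0.63, 0.64 and 0.61 over 392 combinations (mean -0.62, FDR 0.000123), and its replicates lay far below those of any other enhancer. Nanog_E065 changed them by -0.07, -0.11 and -0.09 (FDR 0.0347), a call that was lost without any 1 of the replicates. Lefty1_E087, Pou5f1_E079 and Nanog_E074 had -0.05, -0.04 and -0.03 and were not called. Nanog_E074 was among the strong enhancers of the developmental promoters, and its effects of -0.14, 0.15 and -0.11 were above 0 in replicate 2 only. With *Klf2*, *Nanog* and *Otx2*, Pou5f1_E084 also lowered its partners, by 0.28, 0.33 and 0.40 (FDR 0.00163 to 0.00355). With *Fgf5*, *Sox2*, *Lefty1* and *Tbx3* it raised them, by 0.83, 0.71, 0.45 and 0.44 (FDR 9.03e-05 to 0.00865).

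**Figure D4:**
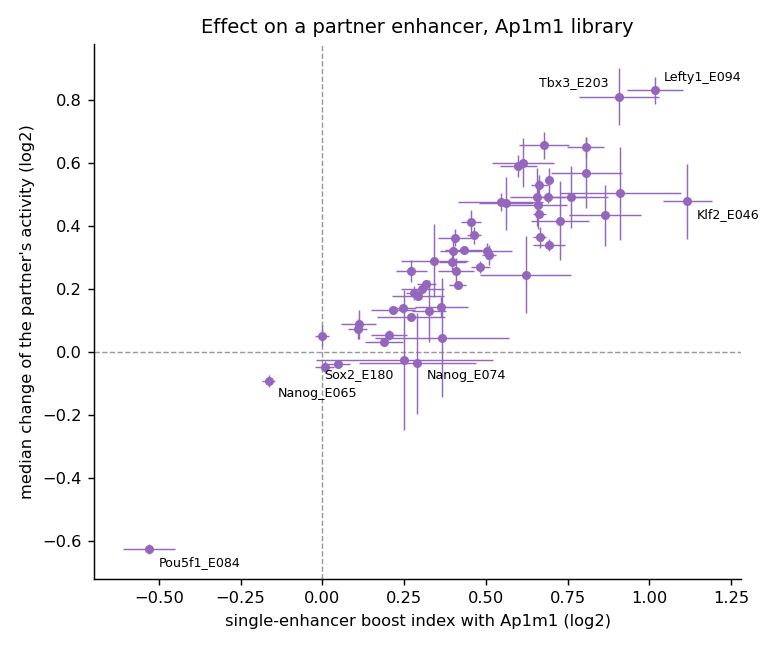
Median change of a partner's log2 activity in EE combinations (y axis) against the single-enhancer boost with *Ap1m1* (x axis, log2) for 57 enhancers, with the mean and SD of 3 replicates on both axes. Pou5f1_E084 lies alone at -0.53 and -0.62, and Lefty1_E094 and Tbx3_E203 lie highest, above 0.80.

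The highest and lowest pairs were built from these enhancers. Over 2199 ordered pairs measured in 3 or 4 orientations, the mean boost had a median of 0.75, with 0.05 at the 5th and 1.33 at the 95th percentile. Tbx3_E203 followed by Lefty1_E094 was the highest, with 1.69, 1.89 and 1.65 in replicates 1 to 3, a 3.35-fold activation over the controls. The others of the 5 highest were Otx2_E111 with Tbx3_E203 (mean 1.69), Lefty1_E094 with Tbx3_E203 (1.67), Pou5f1_E081 with Tbx3_E203 (1.66) and Otx2_E115 with Lefty1_E094 (1.66), and their replicates overlapped. Pou5f1_E084 was part of each of the 20 lowest pairs, while 4.23% of all pairs held it. The lowest 5 had it in position 2, behind Nanog_E065 (mean -0.89), Otx2_E112 (-0.81), Pou5f1_E080 (-0.68), Otx2_E110 (-0.68) and Nanog_E074 (-0.66). Pairs with Pou5f1_E084 had a median of -0.13 and other pairs of 0.77. Nanog_E074 with Pou5f1_E084, below the controls with *Ap1m1*, had a mean boost of 0.44 with *Otx2*, 0.66 with *Klf2*, 0.78 with *Nanog*, 2.29 with *Fgf5*, 2.82 with *Tbx3*, 3.12 with *Lefty1* and 3.43 with *Sox2*.

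To ask how *Ap1m1* combined its enhancers, each EE combination was compared with the sum of both single-enhancer activities in their positions minus the baseline. The median of log2 observed over expected was -0.02, -0.02 and -0.03 in replicates 1 to 3, or -0.03 ± 0.01 (SD, n = 3), over 9318 combinations. Of these, 10.7% were called above and 16.8% below the additive expectation (limma, 5% FDR), against 24.9% and 14.4% over all libraries. The *Otx2*, *Klf2* and *Nanog* libraries were nearer to *Ap1m1*, with 11.7% to 14.7% above and 16.7% to 22.4% below. With *Ap1m1*, 89.7% lay within 0.5 log2 units of the expectation. The single-enhancer activities were medians over both orientations, while the fragments of an EE combination each have a fixed orientation. Calls on either side therefore include effects of orientation. No combination was called without replicate 1 or without replicate 2 by limma, where 917 and 865 were above and 1546 and 1633 below at an unadjusted p under 0.05. Against the product of both activities over the baseline, the median was -0.12 ± 0.02 (SD, n = 3), further from 0 in each replicate. By other measures the expectations were close, with a median absolute deviation of 0.19 for the additive and 0.203 for the multiplicative expectation and a Pearson's r with the observed values of 0.753 and 0.756.

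The slope of observed on expected boost was 1.02 ± 0.03 (SD, n = 3) for *Ap1m1*, between 0.84 and 0.93 for the developmental promoters other than *Fgf5*, and 0.69 for *Fgf5*. For expected boosts from 0 to 0.5, 0.5 to 1 and 1 to 1.5, the median difference was -0.05, -0.02 and -0.01 (SD 0.02, 0.00 and 0.01, n = 3). For the 179 combinations with an expected boost below 0 it was -0.14 ± 0.12 (SD, n = 3). The strongest pairs lay above the expectation, Tbx3_E203 with Lefty1_E094 by 0.26 ± 0.03 and Otx2_E115 with Lefty1_E094 by 0.29 ± 0.04 (SD, n = 3), but they were named for their high observed values.

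**Figure D5:**
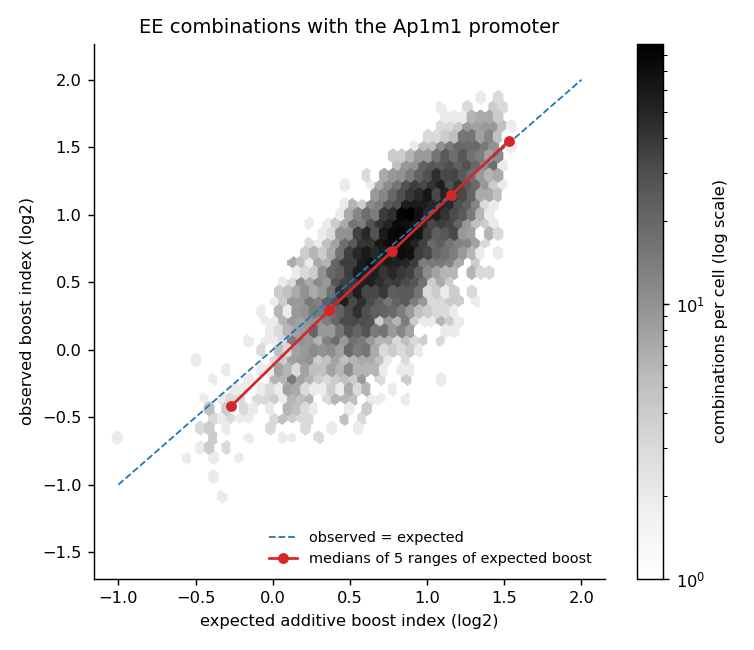
Observed boost (y axis, log2) against the expected additive boost (x axis, log2) of 9318 EE combinations with the *Ap1m1* promoter, with grey cells shaded by the number of combinations on a log scale. Red points are medians of combinations in 5 ranges of expected boost and lie within 0.15 log2 units of the dashed line of equal values.

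Each EE combination was also compared with its stronger single enhancer, whose activity again was a median over both orientations. The median gain over the higher of both single-enhancer activities was 0.12, 0.17 and 0.14 in replicates 1 to 3, and 33.2% of the combinations were called above and 11.2% below it, against 48.2% and 7.87% over all libraries. Without replicate 1 or 2, the number above fell from 3090 to 1424 and 1380. The median gain ranged from 0.22 for *Otx2* to 0.51 for *Tbx3* with the developmental promoters.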

How the data were processed

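Reporter combinations of 8 promoters were measured in E14TG2a mESCs, with 3 biological replicates per library. Per the methods, the authors clustered barcodes with Starcode and linked them to fragments with Bowtie2. They deposited, for each combination and replicate, the activity as the ratio of depth-normalized cDNA to plasmid DNA barcode counts, averaged over barcodes after a minimum on barcodes and plasmid counts. The 2 sequencing runs of a replicate appear as 1 column. Columns with the authors' own mean activity, baselines, boosts and expected values were not used.

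Combinations at 0 in any replicate were left out, which removed 1 of the *Ap1m1* library. Medians, differences and expectations were computed per replicate (Python 3.11.15, pandas 2.3.3, numpy 2.4.6), with at least 5 EC combinations per single-enhancer value and 10 EE combinations per effect on a partner. Tests used limma 3.58.1 (R 4.3.3) over all features of the 8 libraries with Benjamini-Hochberg adjustment, at 1% FDR for single enhancers and 5% otherwise, and were tested on simulated data. The contrast of promoters was fitted over the 45 enhancers measured with all. Shares of variance are R2 of linear fits on fragment identity and orientation by position. Enhancers were named by rank: the highest and lowest boosts, partner effects and pairs, the largest promoter, position and orientation differences, and the *Klf2* locus. The members and lists were chosen with earlier results of these data known. Fragment coordinates (mm10), primers and control sequences were read from the study's supplementary files.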

Additional observations from a re-analysis of the deposited data

Results flagged for a closer look

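Effects of enhancers differed between *Ap1m1* and the developmental promoters in a test of the difference itself (limma, 5% FDR, 45 enhancers). In absolute terms 31 enhancers were lower and 2 higher with *Ap1m1* (0 higher without *Fgf5*), and relative to the median enhancer of each library 20 were lower and 19 higher. The relative differences (log2, *Ap1m1* minus the mean of 7 promoters) were -2.34 for Sox2_E180, -2.20 for Nodal_E159, -2.17 for Klf2_E058, -2.09 for Pou5f1_E081, -2.02 for Nanog_E074, -1.70 for Lefty1_E085 and -0.63 for Pou5f1_E084. They were 0.82 for Nodal_E162, 0.81 for Nodal_E157, 0.80 for Otx2_E110, 0.60 for Tbx3_E205, 0.60 for Pou5f1_E077 and 0.58 for Nodal_E158. Boosts span a wider range with the developmental promoters, and after each library was also divided by its SD over enhancers, Pou5f1_E084 had the most negative value. Groups of 3 replicates are too small for a test of outlying samples.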

How the results depend on the processing

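The results rest on 3 transfections of 1 plasmid pool, and the number of barcodes behind an activity is unknown. Of the summary values recomputed under the alternatives, 191 stayed close to the reported value and 37 moved. The margin for counts was wide, so that a fall from 42 to 29 enhancers called higher without replicate 1 was taken as close. Of the values of named enhancers, 536 kept their side of the threshold, 16 lost it and 2 gained it, and no called one reversed its sign. Leaving out 1 replicate in turn gave 22 to 37 enhancers called higher than the controls and 0 to 1 lower, with 1 lower at an unadjusted p under 0.05 where limma called 0. It gave 8 to 20 lower and 1 to 3 higher in position 1, and 8 to 16 higher in plus and 8 to 14 in minus orientation. It gave 0 to 388 EE combinations above and 0 to 993 below the additive expectation, and 1380 to 2139 above and 528 to 803 below the stronger enhancer. For effects on the partner 1 to 1 enhancer was called lower, and for the promoter contrast 1 to 2 higher. It gave 41 to 66 CC combinations called higher, 233 to 348 EC and 121 to 166 EE combinations called lower. These fits have fewer samples.

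With a pseudocount of 0.01, 0 of 46 enhancers were higher with *Ap1m1* than with the developmental promoters (limma, 0 at an unadjusted p under 0.05). Against *Klf2*, *Otx2* and *Nanog* alone, 0 were higher (1 at an unadjusted p under 0.05) and 20 lower, and relative to the library median 10 were higher and 12 lower. At 5% FDR 2 enhancers were below the controls. The methods' rank-sum test also gave 2, but it counts combinations that share fragments and transfections as replicates and lends no support to the second. Under the multiplicative expectation 388 EE combinations were above it. Without *Fgf5*, an alternative chosen after seeing the data, 0 were higher with *Ap1m1* (limma, 0 at an unadjusted p under 0.05). With equal weight for each partner control, also chosen after seeing the data, 1 enhancer lowered its partner.

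Samples of the same replicate number in different libraries share a number, and their deviations correlated with those of the *Ap1m1* replicate of the same number from -0.21 to 0.79, over 0.1 in 19 of the 21 replicates of the other libraries, and 17 of the 21 correlated best with their own number. With the replicate block, 3 enhancers were higher and 31 lower with *Ap1m1*, and relative to the library median 20 were higher and 21 lower.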
